A study of Mus musculus with 20 samples.

Results

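Mdc1 and the DNA damage signalling transcripts Atm, Atr, Brca1, Brca2, Trp53, Trp53bp1, Rnf8, Chek1 and Chek2 were followed through RNA immunoprecipitation sequencing (RIP-Seq) of Tet1, Tet2 and Tet2ΔRBD in mouse embryonic stem cells (ESCs). The members were chosen by gene symbol, and all 10 were present among the 23284 genes listed in every library. All 10 also passed the filter on low counts that left 13710 genes for testing. Mdc1 heads the list as an example of an mRNA carrying 5-hydroxymethylcytosine (5hmC), a modification that was not measured in these libraries.

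The libraries came from 3 knock-in (KI) ESC lines, Tet1-KI, Tet2-KI and Tet2dRBD-KI, each with a triple tag (Flag, HA and Twin-Strep) at the C-terminus of the endogenous protein. The Tet2dRBD-KI line produces tagged Tet2 without its RNA-binding domain, written Tet2ΔRBD here. All lines were otherwise WT, were kept undifferentiated with leukemia inhibitory factor and came from picked clones, with the number of clones per line not given in the sources used here. RNA bound by the anti-Flag antibody (IP) was compared with RNA that was not immunoprecipitated (input), in 2 pairs for Tet1, 4 pairs for Tet2 and 4 pairs for Tet2ΔRBD. According to the methods the IP started from cytoplasmic extract whereas the input was total RNA, and the labels give polyA RNA for both. Control IPs with IgG or from untagged cells were not analysed here, so recovery that does not depend on the tagged protein was not measured. The labels do not say that replicates were separate cultures, and p-values therefore measure only the spread between these samples.

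Expected counts summed to between 21078995 and 37576638 per library (median 25517290). The numbering of the deposited data places replicate 1 of Tet2 and Tet2ΔRBD in one set of libraries, replicate 2 in another, and replicates 3 and 4 together with both Tet1 pairs in the last. All 9 ESC markers examined, such as Pou5f1 and Nanog, were at 10 TPM (transcript level scaled for length and depth) or more in every input, with sums between 13640 and 17520 TPM. Summed markers were between 10.7 and 63.2 TPM for fibroblasts or feeders, 5.14 and 94.0 TPM for endoderm, 1.77 and 6.57 TPM for mesoderm, 26.2 and 148 TPM for neural cells and 9.89 and 90.3 TPM for trophoblast. Col3a1, Lum, Dcn, Afp, T, Mesp1, Pax6 and Cdx2 stayed below 1 TPM in every input. Other markers of these cell types did not. The highest single value was 122.6 TPM among neural and 79.9 TPM among trophoblast markers. It was 43.7 TPM among endoderm, 35.8 TPM among fibroblast or feeder and 4.94 TPM among mesoderm markers. Tet1 mRNA lay between 8.54 and 17.3 TPM and Tet2 mRNA between 2.49 and 9.21 TPM in the inputs, which does not check the tags, since gene totals do not separate tagged from untagged mRNA.

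A double-strand break is sensed by the kinase ATM and stretches of single-stranded DNA by the related kinase ATR. MDC1 binds the histone H2AX phosphorylated by these kinases and recruits the ubiquitin ligase RNF8, after which BRCA1 and the product of Trp53bp1 gather at the break and BRCA2 acts in repair by homologous recombination. CHK1 and CHK2 (Chek1, Chek2) carry the signal to the cell cycle, and p53 (Trp53) is a transcription factor activated downstream. ESCs divide quickly and are known for strong constitutive expression of Trp53 and for reliance on homologous recombination.

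All positions below are on mm9, the build of the files, from the gencode vM1 annotation. Mdc1 lies at chr17:35978460-35996615 on the plus strand, with a 7335-base transcript in 16 exons. Atr is at chr9:95758016-95852063 on the plus strand (8074 bases, 47 exons), Brca2 at chr5:151325205-151372321 on the plus strand (10724 bases, 27 exons) and Trp53 at chr11:69393861-69405375 on the plus strand (1772 bases, 11 exons). UC-rich sequence is the feature associated with 5hmC in mRNA. The paper reports that most sites of this mark lie in introns. Introns were not searched here, so the windows and matches below, from spliced transcripts, do not describe intronic sites. Within that limit, the 30 coding bases with the most pyrimidines are shown for Mdc1, Atr and Trp53, which lay at both ends of the IP ratios described below. Capitals mark TCCTC, the DNA spelling of UCCUC, searched on the transcript strand. The windows are chr17:35994473-35994502 (Mdc1), chr9:95779002-95779031 (Atr) and chr11:69401025-69401054 (Trp53), all plus strand.
Mdc1: gctaccccTCCTCtctcctgagtTCCTCct
Atr: catcttttcccatttggtttgttcttgttc
Trp53: ctccatggcccctgtcatcttttgtccctt
The Mdc1 window held 25 pyrimidines and 2 TCCTC matches, and the Atr and Trp53 windows 24 pyrimidines each and no match. Of windows with equally many pyrimidines, the one with more matches was taken. Among the members not shown, the Chek2 window also held 2 matches, the Brca2 window 26 pyrimidines and 1 match, and the rest no match. Over the whole transcript, UCCUC was present 11 times in Mdc1, 9 times in Brca2, 7 times in Trp53 and 6 times in Atr. Such matches do not distinguish these transcripts, since 92.7% of the 13110 transcripts that could be matched held at least 1. No hydroxymethylated base was located here.

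In the input, Trp53 was by far the most abundant member on the TPM scale, which is corrected for transcript length. Its mean input level was 318 TPM in Tet1, 379 TPM in Tet2 and 433 TPM in Tet2ΔRBD, above the ranges of the other 9 members in every line. Chek2 came next with 44.2, 35.0 and 33.8 TPM, and its range overlapped that of Mdc1 in Tet2 and Tet2ΔRBD. Mdc1 (17.1, 20.4 and 19.8 TPM), Chek1 (15.5, 14.4 and 16.5 TPM) and Rnf8 (17.3, 13.2 and 13.7 TPM) formed a middle group whose neighbouring ranges overlapped in every line. Trp53bp1 (11.03, 7.10 and 8.49 TPM) and Brca1 (6.53, 6.53 and 7.91 TPM) had lower means, although the ranges of Rnf8 and Trp53bp1 overlapped in Tet2ΔRBD. The ranges of Trp53bp1 and Brca1 overlapped in Tet2 and Tet2ΔRBD but not in Tet1. Atm, Brca2 and Atr were the rarest, with mean input levels between 1.375 and 2.20 TPM in all lines, and neighbouring ranges overlapped. The fewest reads behind any member value were 38.06 expected counts, for Atr in Tet2ΔRBD input replicate 2.

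**Figure D1:**
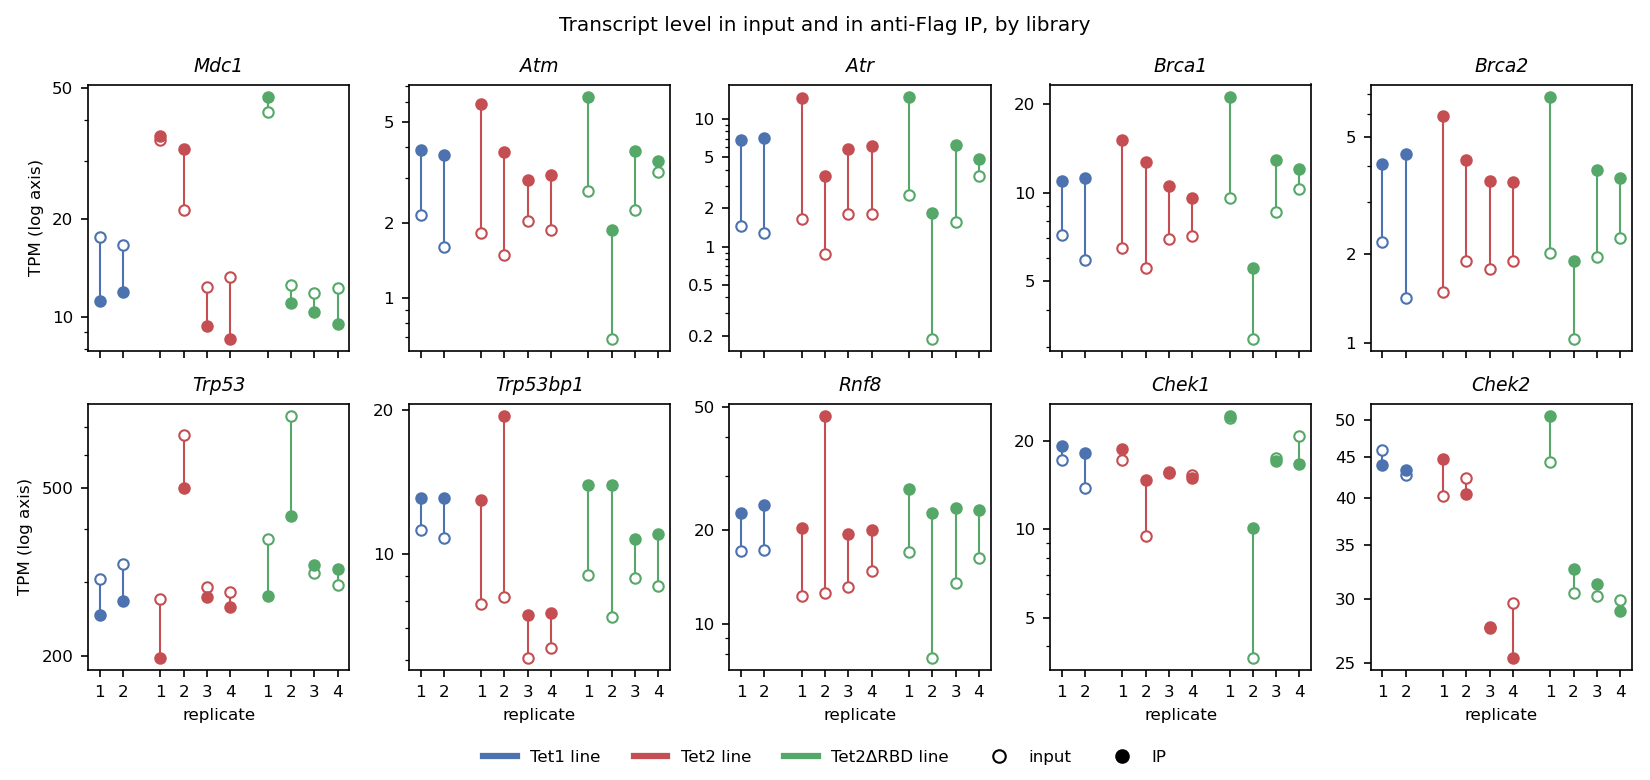
Transcript level of the 10 members in each library, in TPM on a log axis, by replicate number within the Tet1, Tet2 and Tet2ΔRBD lines. Open circles are input and filled circles IP of the same pair, joined by a line; Atr, Brca1, Brca2, Atm, Rnf8 and Trp53bp1 are higher in IP in all 10 pairs, and Mdc1 levels are highest in replicate 1 of Tet2 and Tet2ΔRBD.

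Comparison of IP with input asks which transcripts are recovered with each protein. Atr and Brca2 were higher in IP than in input in all 3 lines, and Trp53 was lower in Tet2 and Tet2ΔRBD. In Tet2, Atm and Brca1 were also higher and Chek2 and Mdc1 lower. With edgeR at an adjusted p below 0.05, 2 of the 10 members were higher and 0 lower in Tet1, against 2.72% and 3.18% of all genes tested. In Tet2, 4 were higher and 3 lower, against 14.6% and 18.5% of all genes, and in Tet2ΔRBD 2 were higher and 1 lower, against 7.4% and 12.1%. The Tet1 count depended on the libraries in the fit. It was 5 members higher and 3 lower (2623 and 3637 genes) within the set of libraries that holds replicates 3 and 4 and Tet1. With the Tet1 pairs alone it was 5 and 2 (3602 and 3383 genes). Calls over all genes were also common in that set of libraries for Tet2 (3306 higher and 3363 lower) and Tet2ΔRBD (3242 and 3326). The median fitted log2 ratio of the members was 0.21 in Tet1, 0.43 in Tet2 and 0.34 in Tet2ΔRBD, and over all genes -0.04, 0.00 and -0.01.

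The scale bears on these directions. Fitted with limma on log2(TPM + 1), the median gene stood at 0.08 in Tet1, 0.23 in Tet2 and 0.19 in Tet2ΔRBD, so that a ratio of IP to input on the TPM scale is read against these values. The split of calls over all genes moved with it, from 2007 higher and 2533 lower in Tet2 by edgeR to 4801 higher and 1113 lower by limma, from 1014 and 1660 to 3224 and 629 in Tet2ΔRBD and from 373 and 436 to 492 and 144 in Tet1. On that scale the members called higher were Atm, Atr, Brca1, Brca2, Rnf8 and Trp53bp1 in Tet2 (35.0% of all genes higher and 8.12% lower) and in Tet2ΔRBD (23.5% and 4.59%) and Atr alone in Tet1 (3.59% and 1.05%), and no member was called lower. Without the pairing of IP and input, edgeR called none of the 10 in any line. Few of all genes passed either, with 0 higher and 0 lower in Tet1, 121 and 254 in Tet2 and 5 and 41 in Tet2ΔRBD.

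**Figure D2:**
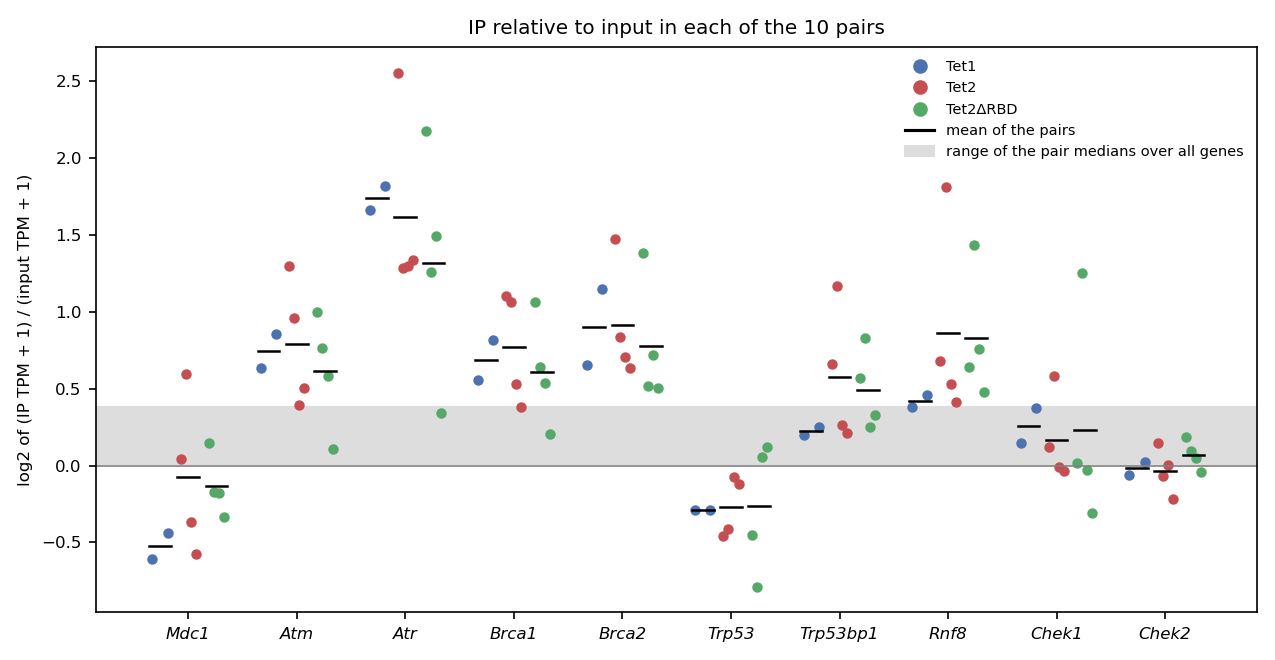
The log2 ratio of IP to input, each as TPM + 1, for every member in each of the 10 pairs, with the mean of each line as a black bar. The grey band spans the pair medians over all genes with a mean input of at least 1 TPM, 0.01 to 0.38; Atr lies above the band in all pairs but replicate 4 of Tet2ΔRBD, and Mdc1 lies below 0 in all but 3 pairs.

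By the rule of the study, a transcript with more TPM + 1 in the IP than in its input is a target. Required in every pair of a line, this held for 7 of the 10 members in Tet1 (50.9% of all genes tested), 6 in Tet2 (46.5%) and 6 in Tet2ΔRBD (31.8%). Atm, Atr, Brca1, Brca2, Rnf8 and Trp53bp1 met it in all 10 pairs, as did 22.4% of all genes. Relative to the median gene of each pair, Atr, Brca1, Brca2 and Rnf8 remained above it in all 10 pairs (11.8% of all genes) and Trp53 was below it in all 10 (13.1%). IP was below input in every pair for Mdc1 and Trp53 in Tet1 (30.1% of all genes), for Trp53 in Tet2 (11.9%) and for no member in Tet2ΔRBD (8.56%).

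Mdc1, the mediator that bridges phosphorylated H2AX and the ubiquitin ligases, was at or below its input in most pairs. In the Tet1 line its input levels were 17.6 and 16.6 TPM and its IP levels 11.2 and 11.9 TPM, so that both IPs lay below both inputs. In the Tet2 line its inputs were 34.7, 21.2, 12.4 and 13.3 TPM in replicates 1 to 4 and its IPs 35.8, 32.6, 9.38 and 8.59 TPM, and in the Tet2ΔRBD line its inputs were 42.4, 12.5, 11.9 and 12.3 TPM and its IPs 47.1, 11.04, 10.3 and 9.55 TPM. The groups overlapped in both lines, with IP above input in replicates 1 and 2 of Tet2 and replicate 1 of Tet2ΔRBD and below it elsewhere. The mean log2 ratio per pair was -0.52 ± 0.12 (SD, n = 2) in Tet1, -0.08 ± 0.52 (n = 4) in Tet2 and -0.13 ± 0.20 (n = 4) in Tet2ΔRBD on the TPM scale. Relative to the median gene of its pair, Mdc1 was lower in all but 1 of the 10 pairs, the exception being replicate 2 of Tet2.

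The fitted log2 ratio of Mdc1 by edgeR was -0.41 (SE 0.14, adjusted p = 0.049) in Tet2, a level in IP 0.754 times that in input. In Tet1 it was -0.71 (SE 0.20, adjusted p = 0.064) and in Tet2ΔRBD -0.42 (SE 0.14, adjusted p = 0.060), neither of which passed. Among all genes tested these ratios stood at percentiles 5.4, 21.4 and 16.3 in Tet1, Tet2 and Tet2ΔRBD. The call in Tet2 was lost without replicate 1, 3 or 4 (edgeR, -0.39, -0.33 and -0.28, adjusted p between 0.144 and 0.196), with DESeq2 (-0.39, adjusted p = 0.051) and with limma on log2(TPM + 1) (-0.08, adjusted p = 0.733). Within the set of libraries that holds replicates 3 and 4 and Tet1, edgeR gave -0.75 in Tet1, -0.72 in Tet2 and -0.56 in Tet2ΔRBD, with adjusted p = 1.8e-05, 1.7e-05 and 9.0e-05. That fit called 3637, 3363 and 3326 genes lower in these lines. The other sets hold 1 pair per line, whose log2 ratios were 0.04 and 0.15 in replicate 1 and 0.60 and -0.17 in replicate 2 of Tet2 and Tet2ΔRBD.

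Among the apical kinases, Atr gave the largest ratios of the list. Its inputs were 1.46 and 1.29 TPM in Tet1, 1.65, 0.88, 1.79 and 1.81 TPM in Tet2 and 2.53, 0.19, 1.56 and 3.6 TPM in Tet2ΔRBD. The IPs of the same pairs held 6.80 and 7.09 TPM, then 14.6, 3.58, 5.85 and 6.09 TPM, and then 15.0, 1.85, 6.22 and 4.83 TPM. Input and IP did not overlap in Tet1 and Tet2, and overlapped in Tet2ΔRBD, where the IP of replicate 2 was below 2 of the inputs but above its own. The fitted log2 ratio by edgeR was 2.19 (SE 0.53, adjusted p = 0.041) in Tet1, 1.84 (SE 0.38, adjusted p = 0.0047) in Tet2 and 1.73 (SE 0.39, adjusted p = 0.014) in Tet2ΔRBD, or 4.57, 3.57 and 3.32 times input. These stood at percentiles 98.0, 98.4 and 98.7 of all genes. In Tet1 the call was lost without either pair, and in Tet2ΔRBD without replicate 1 or 3 (edgeR, 1.57 and 1.77, adjusted p = 0.054 in both). Within the set of replicates 3 and 4, where 3242 genes were called higher in Tet2ΔRBD, the ratio in that line was 0.90 (edgeR, adjusted p = 0.012). The exons of Atr share 187 bases with 1700065D16Rik and 151 bases with Gm16794 on the opposite strand, and whether reads were counted by strand is not given in the sources used here.

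Atm, the kinase for double-strand breaks, had a similar input level and a smaller ratio. In Tet2 its inputs were 1.82, 1.48, 2.02 and 1.87 TPM and its IPs 5.92, 3.83, 2.96 and 3.08 TPM, with no overlap. The edgeR ratio was 0.77 (SE 0.22, adjusted p = 0.022) there, and 0.89 (SE 0.31, adjusted p = 0.116) in Tet1 and 0.62 (SE 0.22, adjusted p = 0.072) in Tet2ΔRBD. All 10 pairs had IP above input, with log2 ratios between 0.11 in replicate 4 of Tet2ΔRBD and 1.30 in replicate 1 of Tet2. The Tet2 call was lost without replicate 1 or 2 (0.63 and 0.74). Within the set of replicates 3 and 4 and Tet1, the edgeR ratio was 0.85 in Tet1 (adjusted p = 0.00049), 0.43 in Tet2 (adjusted p = 0.021) and 0.18 in Tet2ΔRBD (adjusted p = 0.273). That fit called 2623 genes higher in Tet1, 3306 in Tet2 and 3242 in Tet2ΔRBD.

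Of the homologous recombination members, Brca2, which acts on resected DNA, was higher in IP in each line. Inputs lay between 1.42 and 2.20 TPM in Tet1, 1.48 and 1.90 TPM in Tet2 and 1.03 and 2.27 TPM in Tet2ΔRBD. The IPs were 4.04 and 4.37 TPM in Tet1, 5.89, 4.17, 3.54 and 3.51 TPM in Tet2 and 6.86, 1.90, 3.86 and 3.64 TPM in Tet2ΔRBD. Only the IP of Tet2ΔRBD replicate 2 fell within the input range of its line. By edgeR the log2 ratio was 1.09 (SE 0.28, adjusted p = 0.047) in Tet1, 0.93 (SE 0.20, adjusted p = 0.0055) in Tet2 and 0.80 (SE 0.20, adjusted p = 0.019) in Tet2ΔRBD, or 2.13, 1.91 and 1.74 times input. The Tet1 call was lost without either pair, and the Tet2ΔRBD call without replicate 1 or 3 (0.62 and 0.85).

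Brca1, the ubiquitin ligase subunit that acts earlier in the same pathway, had IPs of 15.1, 12.7, 10.5 and 9.58 TPM in Tet2 against inputs of 6.47, 5.54, 6.95 and 7.14 TPM, which did not overlap. Its edgeR ratio was 0.54 (SE 0.15, adjusted p = 0.018) in Tet2, 0.62 (SE 0.21, adjusted p = 0.103) in Tet1 and 0.41 (SE 0.15, adjusted p = 0.075) in Tet2ΔRBD. The Tet2 call was lost without replicate 1 or 2 (0.48 and 0.49). Within the set of replicates 3 and 4 and Tet1, the edgeR ratio was 0.58 in Tet1 (adjusted p = 0.00035), 0.30 in Tet2 (adjusted p = 0.015) and 0.13 in Tet2ΔRBD (adjusted p = 0.243). Over all genes, 2623, 3306 and 3242 were higher in that fit. In Tet2ΔRBD the inputs ranged from 3.19 to 10.3 TPM, the lowest being replicate 2, whose IP was 5.53 TPM.

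Downstream of Mdc1 at the break, neither Rnf8 nor Trp53bp1 passed in any line by edgeR with all libraries in the fit. Rnf8, the ligase that MDC1 recruits, had fitted log2 ratios of 0.29 (SE 0.32), 0.59 (SE 0.23) and 0.60 (SE 0.23) in Tet1, Tet2 and Tet2ΔRBD, with adjusted p = 0.637, 0.070 and 0.087. Its IPs in Tet2 were 20.3, 46.7, 19.5 and 20.1 TPM against inputs between 12.3 and 14.8 TPM, so that groups did not overlap and replicate 2 stood high. Within the set of replicates 3 and 4 and Tet1, Rnf8 passed in each line by edgeR, at 0.26, 0.29 and 0.37 (adjusted p = 0.032, 0.017 and 0.0049). Passing was common in that fit, with 2623, 3306 and 3242 genes higher. With DESeq2 on all libraries, Rnf8 passed in Tet2 and Tet2ΔRBD (0.60 and 0.66). Trp53bp1, whose protein protects broken ends from resection, had log2 ratios of 0.10 (SE 0.22), 0.32 (SE 0.16) and 0.27 (SE 0.16), with adjusted p = 0.835, 0.138 and 0.242. Its exons share 1873 bases with Tubgcp4 on the opposite strand, so its counts are uncertain if strand was not used. Mdc1 thus had negative fitted ratios in lines where the ratios of these partners were positive, a contrast between genes that was not itself tested.

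Of the effector kinases, Chek1, the target of ATR, had fitted log2 ratios of 0.13 (SE 0.36) in Tet1, -0.14 (SE 0.25) in Tet2 and -0.02 (SE 0.26) in Tet2ΔRBD, and the last 2 changed sign on the TPM scale (0.17 and 0.23). Chek1 passed as lower within the set of replicates 3 and 4, at -0.23 in Tet2 and -0.46 in Tet2ΔRBD (edgeR, adjusted p = 0.035 and 0.00090), and without replicate 2 of Tet2ΔRBD (-0.42, adjusted p = 0.035). Over all genes, 3363 and 3326 were lower in that set, and 1615 in Tet2ΔRBD without its replicate 2. Its input in Tet2ΔRBD replicate 2 was 3.64 TPM against 17.6 to 24.1 TPM in the other replicates. Chek2, the target of ATM, was lower in IP in Tet2 by edgeR (-0.35, SE 0.09, adjusted p = 0.016), although its IPs of 44.7, 40.5, 27.7 and 25.4 TPM overlapped its inputs of 40.3, 42.4, 27.7 and 29.6 TPM. On log2(TPM + 1) this ratio was -0.03 (limma, adjusted p = 0.783). Leaving out replicate 1, 2 or 4 also ended the call (-0.35, -0.28 and -0.34). In Tet1 and Tet2ΔRBD the Chek2 ratios were -0.17 (SE 0.13, adjusted p = 0.495) and -0.20 (SE 0.09, adjusted p = 0.147), and the latter was 0.07 on the TPM scale.

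Trp53, the transcription factor at the end of the pathway, was lower in IP. Its inputs were 305 and 330.2 TPM in Tet1, 273, 668, 292 and 284 TPM in Tet2 and 379.9, 743, 315 and 295 TPM in Tet2ΔRBD, with replicate 2 the highest of both Tet2 lines. The IPs held 249.8 and 270.1 TPM, 198, 501, 277 and 261 TPM, and 278, 429.9, 328 and 321 TPM. Groups overlapped in Tet2 and Tet2ΔRBD but not in Tet1, and IP was above input only in replicates 3 and 4 of Tet2ΔRBD. The edgeR ratio was -0.59 (SE 0.16, adjusted p = 0.015) in Tet2 and -0.54 (SE 0.16, adjusted p = 0.034) in Tet2ΔRBD, or 0.665 and 0.688 times input, and -0.44 (SE 0.22, adjusted p = 0.257) in Tet1. On log2(TPM + 1), limma gave -0.27 and -0.26 (adjusted p = 0.146 and 0.178). Within replicates 3 and 4 the ratios were -0.31 in Tet2 and -0.19 in Tet2ΔRBD (edgeR, adjusted p = 0.0024 and 0.033), where 3363 and 3326 genes were lower. The Tet2ΔRBD direction there depends on the scale, since the log2 ratios of these pairs from TPM + 1 were 0.06 and 0.12. Without replicate 1 or 2 the call was lost in both lines (-0.46 and -0.48 in Tet2, -0.42 and -0.39 in Tet2ΔRBD), and in Tet2ΔRBD also without replicate 3 (-0.63).

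**Figure D3:**
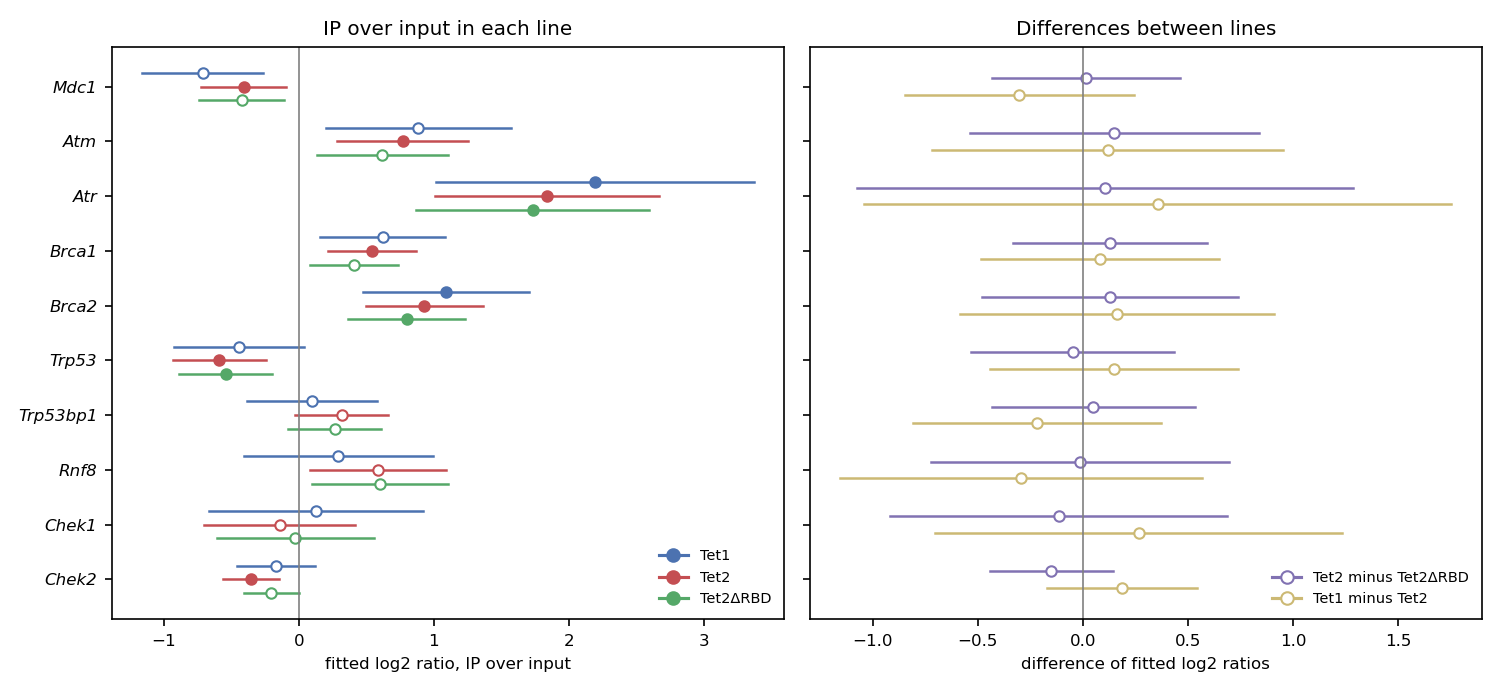
Left, fitted log2 ratio of IP to input by edgeR for each member in Tet1, Tet2 and Tet2ΔRBD; right, the difference of these ratios between lines. Points are estimates and bars 95% confidence intervals, and filled points passed an adjusted p below 0.05; on the right no point is filled and every interval includes 0.

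The difference between Tet2 and Tet2ΔRBD addresses whether recovery of a transcript, relative to other transcripts, depends on the RNA-binding domain. Libraries were scaled to one another (TMM) and the yield of the IPs was not used. A change in recovery shared by all transcripts could therefore not be seen. For 0 of the 10 members did the ratio differ by edgeR, and over all genes 3 (0.0219%) were higher in Tet2 and 0 lower, with 3.03% at an unadjusted p below 0.05. The 10 differences lay between -0.15 for Chek2 and 0.15 for Atm, and the smallest unadjusted p was 0.281. For Mdc1 the difference was 0.02 (SE 0.20), with a 95% interval from -0.43 to 0.46. For Brca2 it was 0.13 (-0.48 to 0.74), for Brca1 0.13 (-0.33 to 0.59) and for Trp53 -0.05 (-0.53 to 0.44). The interval was widest for Atr, at 0.10 (-1.08 to 1.28). Like-numbered pairs of the 2 lines deviated together, with correlations of their log2 ratios across genes of 0.34 or more (mean 0.42). Unlike-numbered pairs averaged -0.13 but reached 0.38. With an IP effect of each replicate number shared by both lines (chosen after seeing the data), edgeR again called 3 genes and no member, with 5.87% of genes at an unadjusted p below 0.05. The intervals were then narrower for each member, at -0.27 to 0.30 for Mdc1, -0.74 to 1.06 for Atr and -0.43 to 0.13 for Chek2. The count over all genes was 29 with DESeq2, 17 without replicate 2 of both lines and 89 higher with 2 lower in the set of replicates 3 and 4, none of them a member.

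Between Tet1 and Tet2 the difference in ratio was also tested, with Tet1 present in 1 set of libraries only. With all libraries in the fit, no member and no other gene passed by edgeR (3.77% of genes at an unadjusted p below 0.05), although DESeq2 called 4 genes higher and 9 lower and limma on log2(TPM + 1) 6 higher, none of them a member. The differences ran from -0.30 for Mdc1 (95% interval -0.85 to 0.24) to 0.36 for Atr (-1.04 to 1.75). Within the shared set of libraries edgeR called 152 genes higher and 162 lower and no member, with a Mdc1 difference of -0.02 and an Atr difference of 0.63.

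The level of the transcripts in the input of the 2 Tet2 lines was compared to see whether the lines differ before IP. No member and none of the 13178 genes tested passed by edgeR (1.88% at an unadjusted p below 0.05), DESeq2 called 9 genes lower, and edgeR with the replicate number as a block called 5 genes lower. The member differences, Tet2ΔRBD minus Tet2, lay between -0.05 for Chek2 and 0.33 for Atr. For Mdc1 it was -0.05 (SE 0.52, 95% interval -1.22 to 1.12), which changed sign without single replicates and reached 0.37 without Tet2 replicate 1 and -0.78 without Tet2ΔRBD replicate 1. Those replicates held the highest Mdc1 inputs of each line, 34.7 and 42.4 TPM, whereas the 6 inputs of the replicate 3 and 4 set, Tet1 included, lay between 11.9 and 17.6 TPM. Fewer cells carrying an mRNA and less of it per cell cannot be told apart in such bulk samples.

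Recovery varied with transcript length across all genes, and Mdc1 had the lowest ratio of the long members. In Tet2, of 10 bins of transcript length, the shortest (median 828 bases) had a median log2 ratio of -0.53 and the longest (median 7292 bases) of 0.38, with Spearman's rho of 0.42 across 13110 genes (0.18 in Tet1 and 0.36 in Tet2ΔRBD), a description across genes that share their libraries. Mdc1, Atm, Atr, Brca1, Brca2 and Trp53bp1 are over 6000 bases long. Among the 1294 tested genes of that length, whose median ratio was 0.39 in Tet2, Mdc1 stood at percentile 4.8, Trp53bp1 at 43.6, Brca1 at 63.8, Atm at 77.4, Brca2 at 84.4 and Atr at 97.4. In Tet1 and Tet2ΔRBD Mdc1 stood at percentiles 2.3 and 3.5 of these long transcripts. The share of TPM held by such transcripts was 0.837% to 1.21% in inputs and 1.01% to 3.31% in IPs, highest in IP replicate 2 of Tet2.

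**Figure D4:**
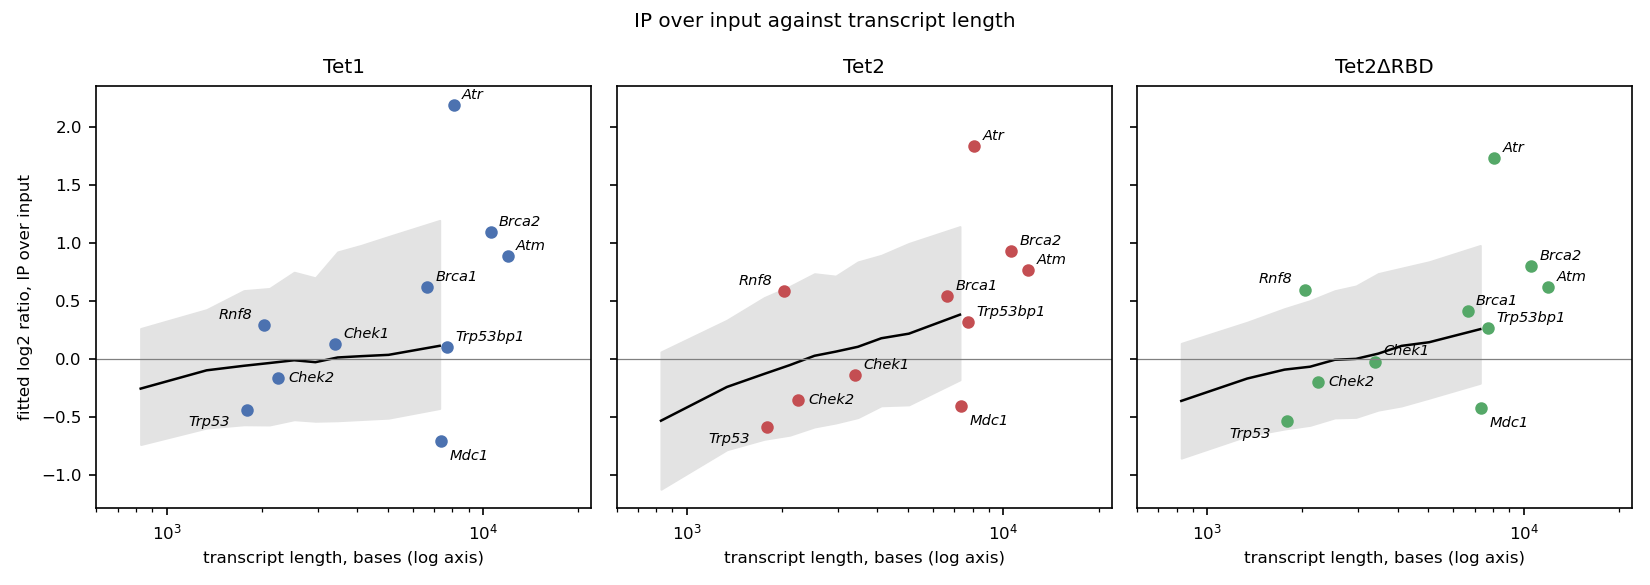
Fitted log2 ratio of IP to input by edgeR against transcript length in bases, on a log axis, for the 10 members (coloured points) in each line. The black line joins the medians of all genes tested in 10 length bins and the grey area spans their 10th to 90th percentiles; in the 3 panels Mdc1 lies below the 10th percentile of the longest bin and Atr above its 90th.

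With the trend on length removed from each pair (limma on log2(TPM + 1), chosen after seeing the data), the Tet2 ratio of Mdc1 was -0.58 (adjusted p = 0.00034), and those in Tet1 and Tet2ΔRBD were -0.76 (adjusted p = 0.0056) and -0.52 (adjusted p = 0.0013). With the trend kept, limma gave -0.08, -0.52 and -0.13 in Tet2, Tet1 and Tet2ΔRBD. Removing the trend also centres each pair, and the median gene stood at 0.23 in Tet2 before. Centring and length were not separated. Atr remained higher at 1.49, 1.10 and 0.92 in Tet1, Tet2 and Tet2ΔRBD (adjusted p = 0.037, 0.012 and 0.040). Brca2 at 0.34, Brca1 at 0.29 and Atm at 0.23 no longer passed in Tet2. Rnf8 passed at 0.63, as it did by limma with the trend kept (0.86). Trp53 (-0.46, limma adjusted p = 0.015) and Chek2 (-0.29, limma adjusted p = 0.014) also passed as lower in Tet2. The part of length in the results was not tested beyond this.

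The members also differed in base composition. Mdc1 mRNA is 51.0% G or C and 47.8% pyrimidine, against medians of 51.1% and 49.3% over all matched transcripts. Atr (41.5%), Brca2 (42.4%), Atm (42.9%) and Chek1 (39.4%) have less G and C, and Trp53 is the richest in both G or C (54.1%) and pyrimidines (55%). UCCUC occurred 1.5 times per kilobase in Mdc1, 3.95 in Trp53, 0.743 in Atr and 0.456 in Brca1, against a median of 1.44. Across genes, Spearman's rho of the ratio with pyrimidine content was -0.36, -0.29 and -0.35 in Tet1, Tet2 and Tet2ΔRBD. With UCCUC density it was -0.13, -0.03 and -0.07, and with GC content -0.13, -0.02 and -0.09. With the GC trend removed, likewise chosen after seeing the data, the Tet2 ratio was -0.31 for Mdc1 (limma, adjusted p = 0.069) and 1.30 for Atr (adjusted p = 0.0021).

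The wider DNA damage response was examined through 83 further genes in 7 lists, of which 81 were tested. In Tet2, 18 were higher and 14 lower in IP by edgeR, against 14.6% and 18.5% of all genes, in Tet1 4 and 5, against 2.72% and 3.18%, and in Tet2ΔRBD 12 and 8, against 7.4% and 12.1%. The same shares stand beside the counts of each list. Their median log2 ratio was 0.11, 0.19 and 0.08 in Tet1, Tet2 and Tet2ΔRBD. For the difference between Tet2 and Tet2ΔRBD, and for the input levels, 0 of the 81 passed (4 and 1 at an unadjusted p below 0.05). Genes named from a count but outside the 3 of largest ratio in their list were added after their values were seen.

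The break sensors and PI3K-like kinases had the highest median of the lists in Tet2, 0.85, with 3 of 8 higher (Prkdc, Mtor and Smg1) and none lower. Prkdc, the DNA-dependent protein kinase, was higher in each line, at 1.5 (SE 0.28, adjusted p = 0.022), 1.47 (SE 0.20, adjusted p = 0.00057) and 1.15 (SE 0.20, adjusted p = 0.0044) in Tet1, Tet2 and Tet2ΔRBD by edgeR. Mtor, the growth kinase of the same family, was higher in Tet2 (1.24, SE 0.22, edgeR adjusted p = 0.0026). Nbn, the sensor subunit that activates ATM, was higher in Tet2ΔRBD (3.18, SE 0.93, edgeR adjusted p = 0.036) with a median input of 0.365 TPM.

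In the ATR branch the list split, with Etaa1, Topbp1 and Clspn of 13 genes higher in Tet2 and Rpa3, Hus1 and Rad1 lower. Etaa1 and Topbp1, both activators of ATR, had ratios of 2.37 (SE 0.51, adjusted p = 0.0058) and 1.26 (SE 0.32, adjusted p = 0.012) by edgeR. Rpa3, the smallest subunit of the protein that coats single-stranded DNA, was at -1.69 (SE 0.17, adjusted p = 0.00015) and was lower in all 3 lines. Its transcript is 638 bases long, that of Etaa1 4192 bases and that of Topbp1 5111 bases.

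Among break-site mediators and ubiquitin ligases, the group closest to Mdc1 in function, Brcc3, Herc2 and Rad18 of 11 tested were higher in Tet2 and Ube2n and Bard1 lower. Ube2n, the E2 enzyme that works with RNF8, had the lowest ratio, -1.86 (SE 0.14, edgeR adjusted p = 7.4e-05), and was lower in each line. Bard1, the partner of BRCA1, was at -0.65 (SE 0.09, edgeR adjusted p = 0.00084) where Brca1 was at 0.54. Of homologous recombination and Fanconi genes, 5 of 18 were higher in Tet2 (Fancm, Blm, Fanci, Brip1 and Fanca) and 3 lower. Blm, a helicase, was higher in the 3 lines, at 1.95 (SE 0.51, adjusted p = 0.049), 1.62 (SE 0.36, adjusted p = 0.0072) and 1.35 (SE 0.37, adjusted p = 0.028) by edgeR.

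End joining genes had 1 of 9 lower in Tet2, the nuclease gene Dclre1c (-1.97, SE 0.44, edgeR adjusted p = 0.0075), and 1 higher in Tet2ΔRBD, the ligase gene Lig4 (1.68, SE 0.53, adjusted p = 0.046). Of 8 checkpoint effectors, Wee1, the kinase that holds CDK1 inactive, was the only one to pass in Tet2 (1.90, SE 0.25, edgeR adjusted p = 0.00046), and was at 0.17 (SE 0.23) in Tet2ΔRBD, a difference that did not pass over all genes. Of 15 p53 target transcripts tested, Ccng1, Gadd45a and Bbc3 were higher in Tet2 and Perp, Pmaip1, Trp53inp1, Btg2 and Ei24 lower. Perp, a junction protein gene, was lower in each line, at -0.85 (SE 0.12), -1.06 (SE 0.08) and -0.94 (SE 0.08) with edgeR adjusted p = 0.019, 7.8e-05 and 0.00026.

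**Figure D5:**
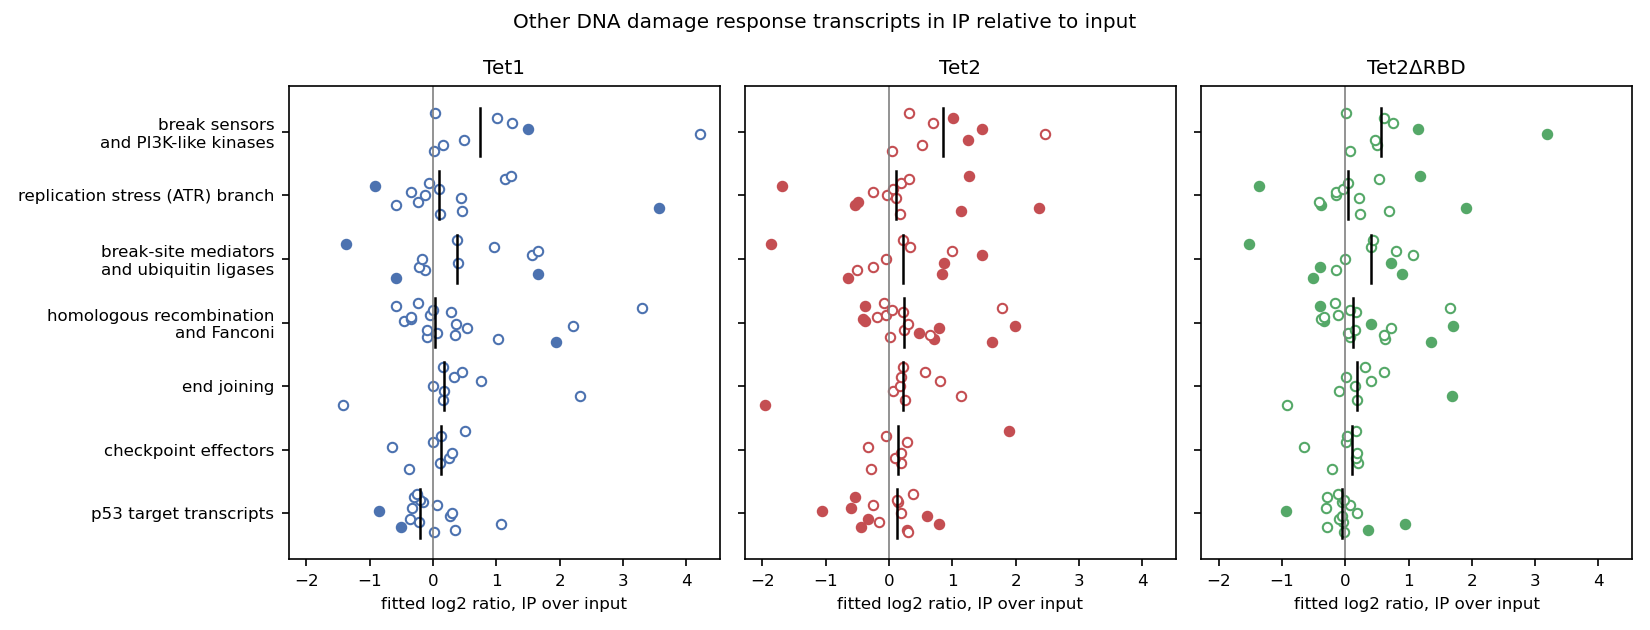
Fitted log2 ratio of IP to input by edgeR for the 81 tested genes of the 7 wider DNA damage lists in Tet1, Tet2 and Tet2ΔRBD. There is 1 circle per gene in each list that holds it, and Mdm2 is in both the checkpoint and p53 target lists. Filled circles passed an adjusted p below 0.05 and black bars are list medians. In Tet2 and Tet2ΔRBD, filled circles lie on both sides of 0 in the ATR, mediator, recombination and p53 target lists. In Tet1 they do so only in the ATR and mediator lists. The medians of the sensor kinases are 0.75, 0.85 and 0.56.

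The genes whose log2 ratio over the 10 pairs ran most like that of Mdc1, among 8467 genes with a mean input of at least 5 TPM, were Clta (Pearson r = 0.998), Zfp568 (0.987), Srsf4 (0.986), Zfp518b (0.986) and Cttn (0.983). Clta encodes a clathrin light chain and Srsf4 a splicing factor. Correlation takes no account of level. Clta and Cttn were above input in all 10 pairs (lowest log2 ratios 0.145 and 0.03), whereas Mdc1 was below its input in most. As Mdc1 did, each of the 5 had its highest ratio in Tet2 replicate 2, from 0.50 for Zfp518b to 0.97 for Zfp568. That peak follows from the choice by correlation. Of the members, Trp53bp1 was nearest (0.881), then Rnf8 (0.773) and Brca1 (0.732), and Trp53 farthest (-0.40). The 10 pairs share lines and library sets, so these values only describe a common pattern.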

How the data were processed

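RIP-Seq was analysed in 20 libraries of tagged mouse ESCs, grouped by their labels. The authors checked reads with FastQC, trimmed them with Trimmomatic, removed rRNA and tRNA reads with Bowtie2 and quantified RefSeq transcripts on mm9 with RSEM. The deposited files give expected counts per gene (not normalized), TPM with a pseudocount of 1 added by the authors, from which 1 was subtracted here, and FPKM, which the authors computed and which was not used. Expected counts were rounded and fitted with the edgeR 4.0.16 quasi-likelihood model (TMM, at least 1 CPM in at least 2 libraries, a block per IP and input pair, Benjamini-Hochberg adjustment over all genes tested). Input levels were fitted without a block. Other fits used DESeq2 1.42.0 and limma 3.58.1 in R 4.3.3, and Python 3.11.15 made tables and plots. The tests were checked on simulated counts. The labels number IP and input alike within a line. Deviations of like-numbered libraries from group means correlated at 0.62 or more in Tet2 (mean 0.77) and 0.58 or more in Tet2ΔRBD (mean 0.72). Unlike-numbered ones averaged -0.22 and -0.20 but reached 0.80 and 0.73, so the check does not settle the pairing of each library. In Tet1, with 2 pairs, 0.27 for like numbers only mirrors -0.27 for unlike ones. Inputs of the 2 Tet2 lines correlated at 0.70 or more with the same number (mean 0.81) and at up to 0.83 otherwise (mean -0.24). The labels name no library sets; the numbers that the deposited files carry gave them. Genes named are the 10 members, per list at most the 3 with the largest absolute ratio among those past the threshold in Tet2 or Tet2ΔRBD, Tet1 and Tet2 as a check of the lines, and the 5 non-members nearest to Mdc1. Members and lists were chosen with earlier results of these data known. Of the tested genes, 95.6% matched a gencode transcript by symbol. The hMeRIP-Seq and RNA-Seq of the study were not analysed here, and some items of the lists are not reported here.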

Additional observations from a re-analysis of the deposited data

Results flagged for a closer look

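In groups of 4 replicates, a value counted as far from the others where the gap to its nearest neighbour took up most of the range of the group (Dixon's 95% limit). Of 60 groups tested over the 10 members, 8 passed, where chance gives about 1 in 20, and the causes were not tested. That rate takes the replicates as interchangeable and the groups as independent, although input, IP and ratio of a gene count separately. Mdc1 in Tet2ΔRBD replicate 1 stood apart in both fractions, with log2(TPM + 1) of 5.44 in input against 3.68 to 3.76 in the other replicates (gap 0.957 of the range) and of 5.59 in IP against 3.40 to 3.59 (0.913). For Atr in Tet2, the log2 ratio of IP to input was 2.55 in replicate 1 against 1.28 to 1.34 (0.96), and the input of replicate 2 was 0.91 against 1.41 to 1.49 (0.854). The Brca1 input of Tet2ΔRBD replicate 2 was 2.07 against 3.26 to 3.50 (0.833). The Trp53 input of Tet2 replicate 2 was 9.39 against 8.10 to 8.19 (0.925). Rnf8 IP in Tet2 replicate 2 was 5.58 against 4.36 to 4.42 (0.952), and the Chek2 input of Tet2ΔRBD replicate 1 was 5.50 against 4.95 to 4.98 (0.946). All of these lie in replicates 1 and 2, the sets of libraries that hold 1 pair per line. Replicates 3 and 4 share a set, and where their values lie together the rule cannot flag either, so this location is partly set by the design.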

How the results depend on the processing

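Leaving out either Tet1 pair leaves 1, assumed to vary like those of the other lines. The input of Atr in Tet2ΔRBD replicate 2 rests on 38.06 expected counts. Results of Tet2 and Tet2ΔRBD rest on library sets of 1 pair per line (replicates 1 and 2) besides the set of replicates 3 and 4. Both Tet1 pairs lie in that last set, and what distinguishes the sets was not tested. Among fitted values under alternatives, 330 kept their direction and side of the threshold, 31 reversed, 44 passed the threshold where the reported value did not and 59 no longer passed. Among counts, 249 stayed within 1.5 times the reported count and 106 did not. Causes were not tested unless the setting itself gives one.

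Members called higher and lower in IP were 2 and 0 in Tet1, 4 and 3 in Tet2, and 2 and 1 in Tet2ΔRBD. Without the pairing (no replicate block) the counts were 0 and 0 in each line. With DESeq2 1 member was lower in Tet1 and 5 were higher in Tet2ΔRBD. With limma on log2(TPM + 1), and equally on log2(TPM + 0.1), 1 was higher in Tet1, 6 were higher in Tet2ΔRBD, and 0 were lower in Tet2 and Tet2ΔRBD. With only the compared lines in the fit, Tet1 had 5 higher and 2 lower and Tet2ΔRBD 0 and 0. The library set of replicates 3 and 4 gave 5 higher and 3 lower in Tet1 and 4 lower in Tet2ΔRBD, and no filter on low counts gave 0 lower in Tet2ΔRBD. With the GC trend removed, 1 was higher in Tet1 (274 of all genes) and 4 in Tet2ΔRBD (1392 of all genes). With the length trend removed, higher and lower were 1 and 1 in Tet1, 2 and 3 in Tet2 and 1 and 2 in Tet2ΔRBD. Over all genes they were 303 and 1088, 1486 and 3076, and 696 and 2225. Leaving out 1 replicate gave 0 to 0 higher and 0 to 0 lower in Tet1, 2 to 4 higher and 0 to 2 lower in Tet2, and 0 to 4 higher and 0 to 1 lower in Tet2ΔRBD. Targets by the study's rule fell to 3, 2 and 0 members in Tet1, Tet2 and Tet2ΔRBD when IP had to be 1.5 times input. The share of all genes at that limit is not given here, so the fall is not particular to the members. For both differences between lines, 0 members passed in every alternative run, including the replicate block shared by the Tet2 lines (Mdc1 0.02, Atr 0.16).

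For Mdc1 in Tet2 the call was lost without the block (-0.31), with DESeq2 (-0.39), limma (-0.08, and -0.09 with the smaller pseudocount), no filter (-0.40), the compared lines only (-0.41) and the GC trend removed (-0.31). Leaving out 1 replicate gave -0.58 to -0.28 in Tet2, -0.74 to -0.68 in Tet1 and -0.47 to -0.36 in Tet2ΔRBD. Mdc1 passed in Tet1 with DESeq2 (-0.71), that line alone (-0.68), the set of replicates 3 and 4 (-0.75) and the length trend removed (-0.76), and in Tet2ΔRBD with that set (-0.56) and the length trend removed (-0.52).

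Each sign that turned was of a reported value that did not pass, and none passed with its sign turned. Trp53bp1 in Tet1 was -0.01 without the length trend and Chek1 in Tet1 -0.29 without the GC trend. Chek1 in Tet2 was 0.17 and 0.18 by limma with either pseudocount, and in Tet2ΔRBD 0.04 with DESeq2, 0.23 and 0.28 by limma, 0.00 with no filter and -0.42 to 0.18 leaving out 1 replicate. Chek2 in Tet2ΔRBD was 0.07 by limma with either pseudocount. The Mdc1 difference between Tet2 and Tet2ΔRBD was -0.02 with DESeq2, -0.17 in the set of replicates 3 and 4, -0.05 without the length trend, -0.14 without replicate 2 of both lines and -0.17 to 0.14 leaving out 1 replicate. The same difference for Atr was -0.43 to 0.50 leaving out 1 replicate and 0.58 without replicate 2 of both lines. The Atr difference between Tet1 and Tet2 was 0.00 without the GC trend. For input levels, the replicate block gave -0.10 for Atr and -0.17 for Mdc1, limma with the smaller pseudocount gave -0.10 for Atr, and leaving out 1 replicate gave -0.09 to 0.71 for Atr and -0.78 to 0.37 for Mdc1.

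Over all genes, 373 were higher and 436 lower in Tet1, 2007 and 2533 in Tet2 and 1014 and 1660 in Tet2ΔRBD. These became 0 and 0, 121 and 254, and 5 and 41 without the block. DESeq2 gave 841 and 737 in Tet1 and 1761 higher in Tet2ΔRBD. Limma gave 144 lower in Tet1, 4801 and 1113 in Tet2 and 3224 and 629 in Tet2ΔRBD, and with the smaller pseudocount 143, 4815 and 1118, and 3370 and 639. The compared lines only gave 3602 and 3383 in Tet1 and 147 and 601 in Tet2ΔRBD. The set of replicates 3 and 4 gave 2623 and 3637 in Tet1, 3306 higher in Tet2 and 3242 and 3326 in Tet2ΔRBD, and without the length trend 1088 were lower in Tet1. Leaving out 1 replicate gave 0 in Tet1, 1224 to 1568 higher and 1466 to 2136 lower in Tet2, and 206 to 1226 higher and 586 to 1615 lower in Tet2ΔRBD. Between Tet2 and Tet2ΔRBD, the 3 genes higher became 0 without the block and with the compared lines only, 29 with DESeq2, 6 with no filter, 89 (and 2 lower) in the set of replicates 3 and 4, 0 to 14 leaving out 1 replicate and 17 without replicate 2 of both lines. Between Tet1 and Tet2, the 0 calls became 4 higher and 9 lower with DESeq2, 152 and 162 in that set, 6 higher by limma, 1 higher with the smaller pseudocount and 1 higher without the length trend. For input levels 0 lower became 9 with DESeq2 and 5 with the replicate block.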
